A study of Mus musculus with 15 samples.

Results

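The genes described here are 10 with which osteoblasts, the cells that lay down bone, regulate, build and mineralise their matrix: Runx2, Sp7, Alpl, Ibsp, Ifitm5, Phospho1, Sparc, Mgp, Enpp1 and Ank. They were chosen by symbol in the array annotation and not by a rule on their values, though with earlier results of these data known. Of the 10, 8 had a probe set naming that gene alone, 1 probe set each, among the 19938 genes tested, and Runx2 and Enpp1 were not analysed here. The study discussed Sp7, Mgp, Sparc, Ifitm5, Ibsp and Enpp1 as bone genes with values from these same arrays. The counts below are therefore not independent evidence of their direction. The study also measured Ibsp and Sparc by qPCR, which correlated with the arrays, and set the gene profiles beside histology of tarsal joints.

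Osteoblasts arise from mesenchymal precursors under the transcription factors Runx2 and then Sp7, and secrete a matrix of type I collagen with smaller proteins such as osteonectin (Sparc) and bone sialoprotein (Ibsp). Mineral forms in that matrix when phosphate is released by tissue-nonspecific alkaline phosphatase (Alpl) and by Phospho1, and it is held back by pyrophosphate, which Enpp1 makes and Ank brings out of the cell, and by matrix Gla protein (Mgp). In inflamed joints, bone is resorbed by osteoclasts and formed by osteoblasts in the same tissue, so that the order in which these genes are expressed is of interest.

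Collagen-induced arthritis had been raised in male DBA/1JBom mice with chicken collagen type II in complete Freund's adjuvant on day 1 and a boost in incomplete adjuvant on day 21. The arrays held whole tarsal joints, 1 per animal and none pooled, at day 0 to 3 (3 joints), week 1 to 2 (3) and week 3 to 4 (3) of arthritis, all at clinical score 3, then 3 joints of the declining phase, which had held score 3 for weeks before the score fell, and 3 control joints. The labels call the controls not induced, whereas the animal methods describe adjuvant without collagen, and whether these 3 mice had adjuvant is not settled by the sources. Skin and visible muscle had been removed and the other soft tissue kept, so a level is that of the whole joint, in which more cells of a type and more RNA per cell cannot be told apart. No source used here gives the ages of the animals.

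By its label, animal 57 of day 0 to 3 failed quality control, so day 0 to 3 had 2 arrays and every other group 3. Values are RMA expression values on the log2 scale, on which a difference of 1 is 2-fold. The SD over genes, a measure of the range of an array, was 1.48 to 1.65 in the first 3 phases, 1.28 to 1.59 in decline and 1.22 to 1.46 in controls, and on animal 57 it was 1.08. All 4 comparisons with control share the same 3 control joints. The median log2 change of all genes was -0.12 at day 0 to 3, -0.13 in joints of week 1 to 2, -0.09 in those of week 3 to 4 and -0.05 in decline, and centring the arrays on their medians moved it to between -0.03 and 0.02.

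Against control, in one limma fit over the 5 groups with Benjamini-Hochberg adjustment over all genes, 3 of the 8 members rose at day 0 to 3 (4.46% of all genes did), 3 in the joints of week 1 to 2 (5.41% of all genes), 2 in week 3 to 4 (0.958%) and 0 during decline (0%). None fell in any phase. The risers were Ibsp, Sparc and Mgp, with Mgp missing the threshold in week 3 to 4. In decline, limma at an unadjusted p under 0.05 picked 4 members (Alpl, Ibsp, Mgp, Sparc) and 12.0% of all genes, and the same contrast without moderation called 0 after adjustment. Over the 5 groups together, the moderated F test called 4 of 8 members, Ibsp (adjusted p = 0.00804), Sparc (0.0101), Alpl (0.0239) and Mgp (0.0263), against 5.2% of all genes. By overlap, every array of the phase stood above every control for 4 of 8 members at day 0 to 3 (18.4% of all genes), 5 in the joints of week 1 to 2 (13.6%), 4 in week 3 to 4 (10.5%) and 3 during decline (3.8%).

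**Figure D1:**
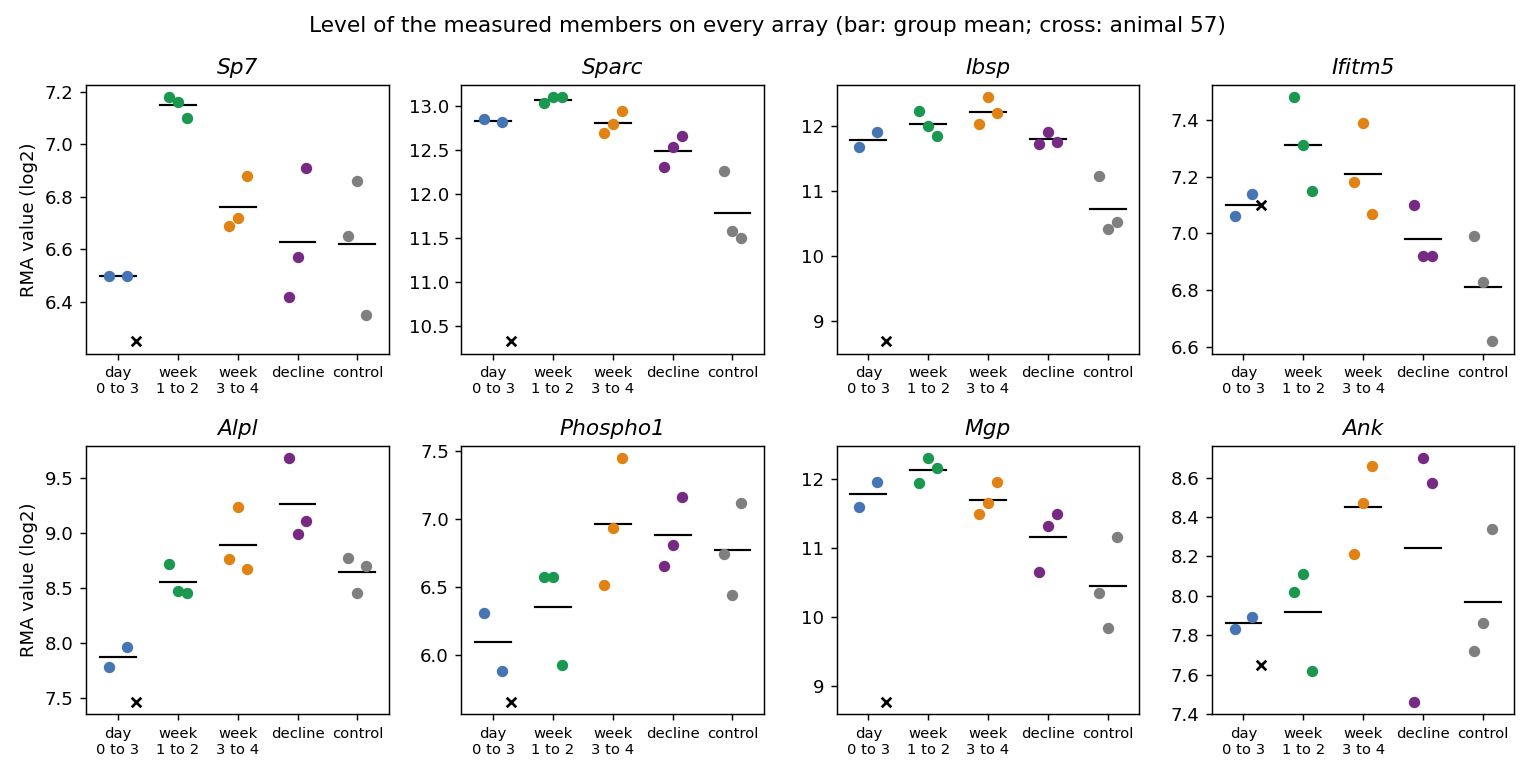
RMA value (log2, vertical axis, its range differing between panels) of the 8 measured members on each array, by phase and control; points are arrays, bars group means over the 14 arrays that passed quality control, and crosses animal 57. On the arrays that passed, Sparc and Ibsp lie above all controls in every phase, whereas animal 57 (10.32 and 8.69) lies below them, and Alpl is lowest at day 0 to 3 (7.78 and 7.96) and highest in decline (8.99 to 9.68).

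Sp7 (osterix; chr15:102356603-102367035, GRCm38.p6), the zinc finger factor that commits precursors to the osteoblast line, was at its highest in week 1 to 2. It stood at 6.50 on both arrays of day 0 to 3, at 7.18, 7.16 and 7.10 in joints of week 1 to 2, at 6.72, 6.69 and 6.88 in those of week 3 to 4, at 6.57, 6.91 and 6.42 in decline, and at 6.65, 6.86 and 6.35 in controls. The 3 arrays of week 1 to 2 were above every array of the other groups. Sp7 averaged 7.15 ± 0.04 in week 1 to 2 and 6.62 ± 0.26 in controls (SD, n = 3 each), a log2 change of 0.53 (SE 0.16) that did not pass the adjustment in limma (adjusted p = 0.0558). The week 1 to 2 mean exceeded that of day 0 to 3 by 0.65 (SE 0.18, adjusted p = 1). In the other phases its changes against control ranged from -0.12 to 0.14. The call against control hangs on the setting, since Sp7 passed in week 1 to 2 under 7 of 25 alternatives, among them those without decline 21, decline 10 or control 2.

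Sparc (osteonectin; chr11:55394159-55420080) and Ibsp (bone sialoprotein; chr5:104299287-104311472) are matrix proteins of bone, the first binding collagen and calcium and the second binding integrins and seeding hydroxyapatite crystals. With Mgp, which has no promoter window in the table used, they held all calls of members against control, and Alpl, described further below, differed between decline and day 0 to 3. The 250 bases before the start sites of Ibsp, Sparc and Alpl are therefore shown, from RefSeq on GRCm38.p6, with the letters TATAAA on either strand in capitals. The windows are Ibsp chr5:104299037-104299286 (+ strand), Sparc chr11:55420081-55420330 (- strand), and for both start sites of Alpl chr4:137796385-137796634 and chr4:137766476-137766725 (- strand), the second of which lies within the Alpl gene.
Ibsp: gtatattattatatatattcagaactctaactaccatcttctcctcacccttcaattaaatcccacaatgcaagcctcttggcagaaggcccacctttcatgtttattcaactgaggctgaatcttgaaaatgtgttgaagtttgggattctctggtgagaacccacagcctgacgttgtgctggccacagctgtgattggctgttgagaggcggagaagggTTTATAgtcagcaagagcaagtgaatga
Sparc: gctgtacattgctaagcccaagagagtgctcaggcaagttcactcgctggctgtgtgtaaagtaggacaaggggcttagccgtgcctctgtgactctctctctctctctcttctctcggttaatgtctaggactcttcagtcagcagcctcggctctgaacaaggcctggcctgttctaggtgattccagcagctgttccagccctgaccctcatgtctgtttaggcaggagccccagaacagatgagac
Alpl, first start: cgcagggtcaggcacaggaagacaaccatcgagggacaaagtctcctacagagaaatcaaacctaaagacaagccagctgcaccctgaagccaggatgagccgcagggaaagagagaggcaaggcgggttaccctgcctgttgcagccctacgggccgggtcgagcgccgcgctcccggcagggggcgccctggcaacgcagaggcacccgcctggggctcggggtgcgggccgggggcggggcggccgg
Alpl, second start: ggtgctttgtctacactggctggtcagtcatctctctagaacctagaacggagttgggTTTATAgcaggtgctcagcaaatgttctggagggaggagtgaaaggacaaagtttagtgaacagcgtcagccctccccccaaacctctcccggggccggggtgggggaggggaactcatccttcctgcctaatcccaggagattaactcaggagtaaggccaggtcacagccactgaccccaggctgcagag
In Ibsp the TATA letters lie on the reverse strand at position -28 from the start, so that the gene strand reads TTTATA, the inverted TATA element known for this gene. The second start of Alpl holds the same letters at -192, also on the reverse strand. Such letters are in 12.4% of 32851 RefSeq promoter windows of this length. The core bound by Runx factors (TGTGGT, 14% of windows) was in none of the 4 windows shown, and of 9 windows for 8 of the 10 listed genes it was in those of Runx2 and Enpp1, at -80 and -144, both on the reverse strand. The homeodomain core TAATTA (4.84% of windows) was in 0 of the 9. The 3 motifs were searched on both strands, and a match or its lack is a description of these letters alone. Like Mgp, Sp7 has no window in the table.

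Ibsp was raised in the first 3 phases and at its highest in week 3 to 4. Its values were 11.67 and 11.90 at day 0 to 3, 12.23, 12.00 and 11.85 in joints of week 1 to 2, 12.44, 12.02 and 12.19 in those of week 3 to 4, and 11.91, 11.75 and 11.72 in decline, against 11.23, 10.41 and 10.53 in controls. No array of any phase reached down to the highest control, and control 1 stood apart from the other 2. Ibsp rose 2.08-fold at day 0 to 3 (log2 change 1.06, SE 0.23, adjusted p = 0.0164), 2.46-fold in week 1 to 2 (1.30, SE 0.21, adjusted p = 0.00347) and 2.81-fold in week 3 to 4 (1.49, SE 0.21, adjusted p = 0.0118). In decline the log2 change was 1.07 (SE 0.21), as large as at day 0 to 3, but the adjusted p was 0.132. The week 3 to 4 call was lost without animal 60 and the day 0 to 3 call without either of its 2 arrays or after a second quantile normalisation, which brought that change to 0.58. The decline change passed without decline 10 or without control 1.

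Sparc was raised in the same 3 phases and had its highest mean in week 1 to 2. It stood at 12.85 and 12.82 at day 0 to 3, at 13.03, 13.10 and 13.10 in joints of week 1 to 2, at 12.79, 12.69 and 12.94 in those of week 3 to 4 and at 12.53, 12.66 and 12.30 in decline, against 12.26, 11.58 and 11.50 in controls. The arrays of week 1 to 2 were above those of every other group, and those of decline were closest to the controls without overlapping them. The rise was 2.08-fold at day 0 to 3 (1.05, SE 0.21, adjusted p = 0.0107), 2.45-fold in week 1 to 2 (1.30, SE 0.19, adjusted p = 0.00251) and 2.04-fold in week 3 to 4 (1.03, SE 0.19, adjusted p = 0.0252), and in decline the change was 0.71 (SE 0.19, adjusted p = 0.192). The call of week 3 to 4 was the least firm, lost without any 1 of animals 54, 29 and 60, without control 2 or control 3, and with arrays centred on their medians. Without either array of day 0 to 3 that phase lost its call, and without control 1 the decline change passed (adjusted p = 0.0425).

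Ifitm5 (BRIL; chr7:140948958-140950243) encodes a small membrane protein largely restricted to osteoblasts, which in humans is mutated in a form of osteogenesis imperfecta. It was at 7.06 and 7.14 at day 0 to 3, 7.48, 7.31 and 7.15 in joints of week 1 to 2, 7.39, 7.18 and 7.07 in those of week 3 to 4 and 6.92, 6.92 and 7.10 in decline, against 6.99, 6.83 and 6.62 in controls. Every array of the first 3 phases was above every control, and those of decline overlapped them. By rank among the genes of its array, however, animal 60 of week 3 to 4 (percentile 68.8) lay below control 1 (69.2). The largest log2 change, 0.50 (SE 0.15) in week 1 to 2, did not pass (adjusted p = 0.0511), and those of the other phases were 0.17 to 0.40. It passed in week 1 to 2 under 5 of 25 alternatives, among them those without decline 10 or control 1 and with arrays centred on their medians.

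Alpl (chr4:137741731-137796384), the phosphatase of the osteoblast surface that splits pyrophosphate and is an early marker of the mineralising cell, had an order of its own. Its values were 7.78 and 7.96 at day 0 to 3, 8.72, 8.47 and 8.45 in joints of week 1 to 2, 9.23, 8.76 and 8.67 in those of week 3 to 4 and 8.99, 9.11 and 9.68 in decline, against 8.77, 8.45 and 8.70 in controls. Both arrays of day 0 to 3 lay below every control, as did 27.8% of all genes. All 3 of decline lay above every control, as did 3.8% of all genes, with decline 10 the highest of all. By rank among the genes of each array, decline was at percentiles 94.8, 94.8 and 98.2 and controls at 94.4, 95.4 and 94.1. Ranks of decline thus overlapped those of controls, whereas day 0 to 3 (82.9 and 86.7) stayed below them. The group means increased with each phase, 7.87, 8.55, 8.89 and 9.26, and the control mean of 8.64 ± 0.17 (SD, n = 3) lay above that of week 1 to 2 and below that of week 3 to 4.

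No change of Alpl against control passed in limma: it was -0.77 (SE 0.23, adjusted p = 0.0552) at day 0 to 3, -0.09 (SE 0.20) in joints of week 1 to 2, 0.25 (SE 0.20) in those of week 3 to 4 and 0.62 (SE 0.20, adjusted p = 0.277) in decline. Between decline and day 0 to 3, a comparison added after the values were seen, Alpl was 2.61-fold higher in decline (log2 difference 1.38, SE 0.23, adjusted p = 0.0116), where 0.928% of all genes were called higher. That call was lost without either array of day 0 to 3 (adjusted p = 0.209 without animal 16 and 0.138 without animal 18), in a fit of those 2 groups alone (0.0835) and without moderation of the spread (0.067). It was kept without decline 10, at 1.17 (adjusted p = 0.0194). With animal 57 added to day 0 to 3, the difference was 1.52 (adjusted p = 0.0183). Alpl was 7.46 on that array, which failed quality control and had the narrowest range (SD over genes 1.08). Among the genes of its array that value was at percentile 88.3, against 82.9 on animal 16 and 86.7 on animal 18. By rank, Alpl was thus not lower on animal 57. The day 0 to 3 change against control passed as a fall under 5 alternatives, among them those without decline 10 and after a second quantile normalisation (-1.02, adjusted p = 0.0493).

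The array names in the study's supplement carry 1 of 2 letter codes of unstated meaning, the first on all arrays of the first 2 phases and on animal 54, the second on animals 29 and 60 and on decline, and none on the controls. With that code as a block, the decline minus day 0 to 3 difference of Alpl was 1.90 with adjusted p = 0.278. Day 0 to 3 and decline share no code, so the block was set by week 3 to 4 alone, animal 54 against animals 29 and 60. Within the first code, animal 54 of week 3 to 4 was at 9.23, against 7.78 to 8.72 on the 5 arrays of the first 2 phases. Within the second, animals 29 and 60 were at 8.76 and 8.67 and decline at 8.99 to 9.68. Of 6 epidermis markers none was called in any phase, but their mean was also highest in decline: it was 5.84 to 5.92 at day 0 to 3, 5.99 to 6.68 in joints of week 1 to 2, 7.26 to 11.12 in those of week 3 to 4 and 10.45 to 11.60 in decline, against 6.26 to 10.36 in controls. The mean of 8 cartilage genes was 6.72 to 6.93 at day 0 to 3 and 7.12 to 7.42 in the later phases, against 7.15 to 7.25 in controls. Of these 8, the matrix protein chondroadherin, Chad, alone was called: it was lower at day 0 to 3 (-2.97, adjusted p = 9.35e-05) and in week 1 to 2 (-1.46, 0.0023), with changes of -0.28 and -0.23 in the phases after. Aggrecan, Acan, had changes of 0.54, 0.87, 0.72 and 0.35, none of which passed. The part of these markers in the order of Alpl was not tested.

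Phospho1 (chr11:95824500-95832140), the phosphatase that frees phosphate from phosphocholine inside matrix vesicles, ran low early. It stood at 6.31 and 5.88 at day 0 to 3, 6.57, 6.57 and 5.92 in joints of week 1 to 2, 6.93, 6.51 and 7.45 in those of week 3 to 4 and 6.81, 7.16 and 6.65 in decline, against 6.74, 6.44 and 7.12 in controls. Only the arrays of day 0 to 3 kept clear of the controls, lying below all 3, as did 27.8% of all genes. None of the log2 changes passed, with -0.67 (SE 0.30, adjusted p = 0.174) at day 0 to 3 the largest. Alpl and Phospho1 were the 2 of 8 members whose arrays of day 0 to 3 all lay below the controls, a count near that share of 27.8%.

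Mgp (chr6:136872435-136875823), the vitamin K-dependent inhibitor of calcification made by chondrocytes and vascular smooth muscle as well as in bone, had the largest change of any measured member, in week 1 to 2. It was at 11.60 and 11.96 at day 0 to 3, 11.94, 12.31 and 12.17 in joints of week 1 to 2, 11.65, 11.50 and 11.96 in those of week 3 to 4 and 11.32, 11.49 and 10.65 in decline, against 10.35, 9.84 and 11.16 in controls. Controls spread widely (SD 0.67), and yet the first 3 phases stood above all of them, while decline 10 fell among them. Mgp rose 2.52-fold at day 0 to 3 (1.33, SE 0.33, adjusted p = 0.0289) and 3.23-fold in week 1 to 2 (1.69, SE 0.30, adjusted p = 0.00547). The changes were 1.25 (SE 0.30, adjusted p = 0.0528) in week 3 to 4 and 0.71 (SE 0.30, adjusted p = 0.376) in decline. The day 0 to 3 call was lost without animal 16, animal 18 or control 2, and under either rescaling of the arrays (adjusted p = 0.0517 centred, 0.0523 after a second quantile normalisation), and week 3 to 4 passed without decline 21, decline 10 or control 3.

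Ank (chr15:27466677-27594909), the membrane protein that brings pyrophosphate out of the cell, had the widest spread within a phase, in decline (SD 0.68). Its values were 7.83 and 7.89 at day 0 to 3, 8.02, 8.11 and 7.62 in joints of week 1 to 2, 8.47, 8.21 and 8.66 in those of week 3 to 4 and 8.70, 8.57 and 7.46 in decline, against 7.72, 7.86 and 8.34 in controls. All phases overlapped the controls, and decline 10 was the lowest array of all while decline 15 was the highest. The log2 changes, -0.11 to 0.47, did not pass (lowest adjusted p = 0.313, week 3 to 4).

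**Figure D2:**
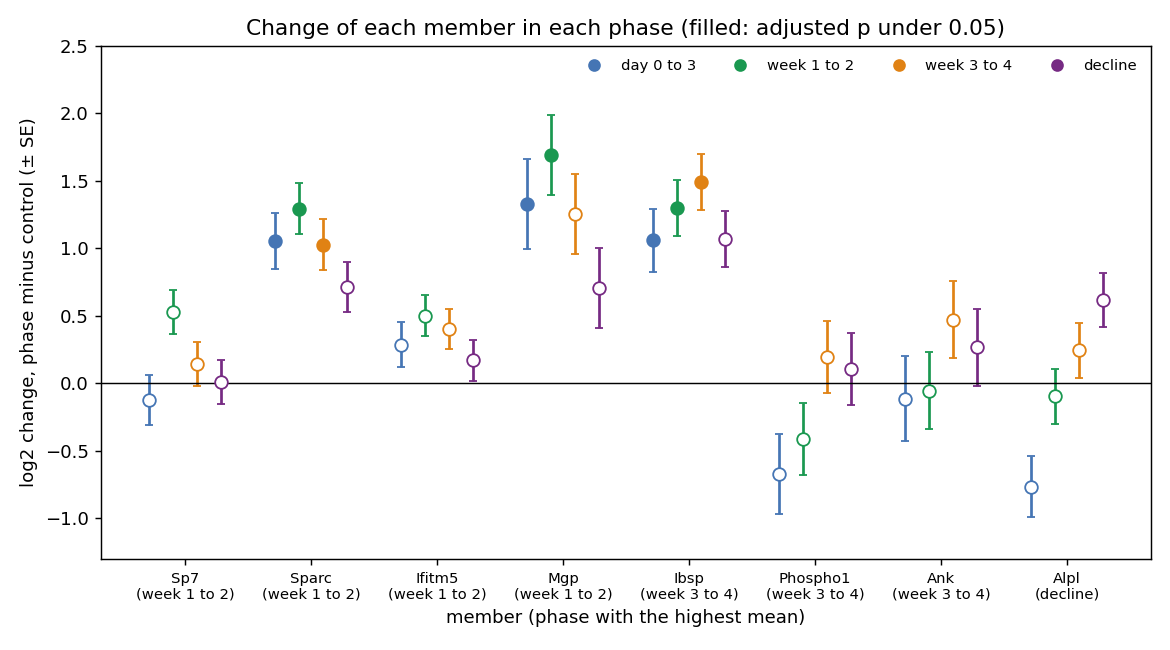
Log2 change against control (vertical axis, ± SE from limma) of each member in the 4 phases, members ordered along the horizontal axis by the phase of their highest mean; filled points have adjusted p under 0.05. Sparc, Mgp and Ibsp hold all 8 filled points, and Alpl runs upward through the phases, with changes of -0.77, -0.09, 0.25 and 0.62.

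Ordered by the phase with the highest mean, 4 members came first, in week 1 to 2: Sp7 (0.38 above its next phase on the log2 scale), Mgp (0.36), Sparc (0.24) and Ifitm5 (0.10). Then 3 followed in week 3 to 4, Ank (0.20), Ibsp (0.19) and Phospho1 (0.09), and 1 in decline, Alpl (0.37). No member had its highest mean at day 0 to 3. Under 18 alternatives (all 15 arrays, each array left out, both rescalings and averaged probe sets) this order held for 6 members. Leaving out a control or averaging probe sets could not move a peak, since phases alone were compared and each member had 1 probe set. Phospho1 moved to decline without week 3 to 4 animal 60 or without decline 10, and Ank moved to decline without decline 10.

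Neighbouring phases could hardly be told apart by test. In limma, 0 of 8 members passed in week 1 to 2 against day 0 to 3 (0.00502% of all genes did), 0 in week 3 to 4 against week 1 to 2 (0.00502%) and 0 in decline against week 3 to 4 (0%). At an unadjusted p under 0.05 the counts were 2 (Alpl, Sp7; 1.79% of all genes), 2 (Phospho1, Sp7; 4.98%) and 0 (6.13%), and the same contrasts without moderation called 0 in each. With array quality weights, Sp7 alone passed in week 1 to 2 against day 0 to 3 (adjusted p = 0.0148). So the order by highest mean is a description. In it, the arrays of the peak phase stood clear of all other phases for Sp7 and Sparc. For the other 6 members they overlapped those of another phase. The share of all genes whose peak phase stands clear in this way was not computed.

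Across the 14 arrays, Ibsp and Sparc followed each other most closely of the members (r = 0.90), with Mgp and Sparc at 0.83, Ifitm5 and Ibsp at 0.82, and Ifitm5 and Sparc at 0.79. Ank and Phospho1 were at 0.70 and Phospho1 and Alpl at 0.54, while Alpl ran at -0.18 with Sparc and -0.28 with Mgp. These values describe 14 joints that share phases and arrays, and the range of an array differed between controls and the first 3 phases too. Over all genes, the patterns most like Ibsp were those of Arid4b, Col5a2, Ebag9, Col6a1 (each r = 0.94) and Mbtd1 (0.93), of which Col5a2 and Col6a1 are collagen chains. Most like Sp7 were Usp53 (0.92), Epyc, a proteoglycan of growth cartilage (0.82), Mras (0.82), 9530091C08Rik (0.81) and Ube2b (0.79). For Alpl, added after the values were seen, they were Col2a1, the main collagen of cartilage (0.90), Sh3gl3 (0.88), Id4 (0.87), Mfge8 and Clec4b1 (both 0.86).

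**Figure D3:**
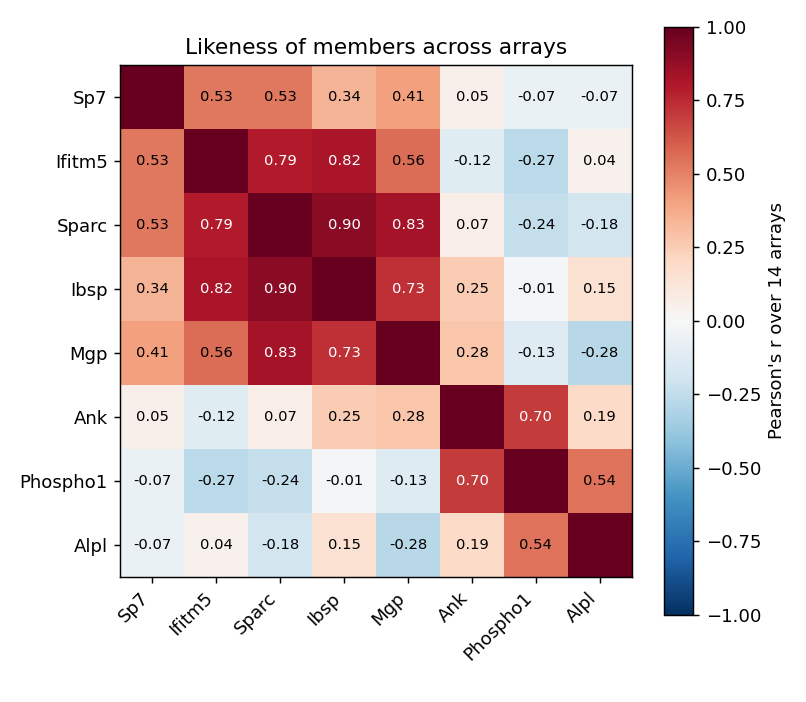
Pearson's r between members over the 14 arrays that passed quality control, both axes listing the 8 members; red is positive and blue negative. Ifitm5, Sparc, Ibsp and Mgp form one block, with Sparc and Ibsp at 0.90, and Alpl is at 0.54 with Phospho1 and -0.18 with Sparc.

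A further 32 genes covered osteoblast regulation, bone matrix, phosphate handling, inhibition of mineral, osteogenesis imperfecta and osteocytes. Of these, 3 rose at day 0 to 3 (4.46% of all genes did) and 7 in joints of week 1 to 2 (5.41%). In week 3 to 4, 0 rose (0.958%) and in decline 0 (0%), while 2 fell at day 0 to 3 (3.36% of all genes did). The median log2 change of the 32 was 0.08, 0.33, 0.43 and 0.12 in order of phase, beside 0.09, 0.51, 0.44 and 0.44 for the members. With list members included, the bone matrix list had 2, 6, 2 and 0 of 8 genes higher, the osteogenesis imperfecta list 4, 4, 1 and 0 of 11, and the list of phosphate and pyrophosphate handling 0 of 9 in every phase (median -0.11, 0.05, 0.35 and 0.11). Enpp1, which belongs to the last list, was not analysed here, though the study reported it as raised on these same arrays. At an unadjusted p under 0.05 in limma, in order of phase, 14, 18, 16 and 5 of the 32 further genes passed and 3, 1, 2 and 1 of the 9 phosphate genes, beside 26.1%, 29.9%, 23.9% and 12.0% of all genes. The counts of the phosphate genes, and that of the further genes in decline, were thus near or below the share over all genes. Lists share genes, and they were chosen with earlier results of these arrays known.

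Of these further genes, those higher at day 0 to 3 were Crtap (2.81-fold, adjusted p = 0.0151) and Ppib (2.22-fold, 0.0353), partners in the hydroxylation of procollagen, and Bmp1 (1.71-fold, 0.034), the protease that trims it. In week 1 to 2, Crtap (2.51-fold) and Ppib (2.00-fold) were joined by both chains of type I collagen, Col1a1 (log2 change 1.10, adjusted p = 0.0252) and Col1a2 (2.19-fold, 0.0128), by osteomodulin, Omd (1.90-fold, 0.0354), by Serpinf1 (1.71-fold, 0.0166), a secreted factor mutated in recessive human osteogenesis imperfecta, and by Phex (2.68-fold, 0.00927), an endopeptidase of osteoblasts and osteocytes needed to keep phosphate in the body. Phex averaged 7.47 ± 0.68 at day 0 to 3 (n = 2), 8.89 ± 0.28 in joints of week 1 to 2, 8.31 ± 0.28 in those of week 3 to 4 and 7.95 ± 0.40 in decline, against 7.46 ± 0.33 in controls (SD, n = 3 each), highest in the same phase as Sp7.

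The genes that fell at day 0 to 3 were Sost (-0.84, SE 0.21, adjusted p = 0.0307), the Wnt antagonist of osteocytes, and Dlx5 (-0.98, SE 0.19, adjusted p = 0.00844), a homeodomain factor of the osteoblast line. As with Alpl, the mean of Dlx5 was higher in each phase than in the one before: it was 7.86 at day 0 to 3, 8.37 in joints of week 1 to 2, 8.93 in those of week 3 to 4 and 8.99 in decline, against 8.85 in controls. In limma, Dlx5 was 2.18-fold higher in decline than at day 0 to 3 (adjusted p = 0.0116). That comparison was added after the values were seen and rests on the 2 arrays of day 0 to 3. Over all genes it called 320, but 5 without moderation of the spread and 1 with the letter code as a block. Whether Dlx5 is among those few is not reported here. Of the other osteocyte genes, podoplanin, Pdpn, which macrophages and fibroblasts also make, had changes of 1.28 (SE 0.39, adjusted p = 0.062), 0.88, 0.90 and 0.12 in order of phase. Dmp1 and Mepe, proteins of the osteocyte matrix, did not pass in any phase either, with changes of -0.47, 0.22, 0.79 and 0.54 for Dmp1 and of -0.50, -0.42, -0.01 and -0.15 for Mepe. Bmp1, Dlx5, Omd, Dmp1 and Mepe were named after their values were seen.

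**Figure D4:**
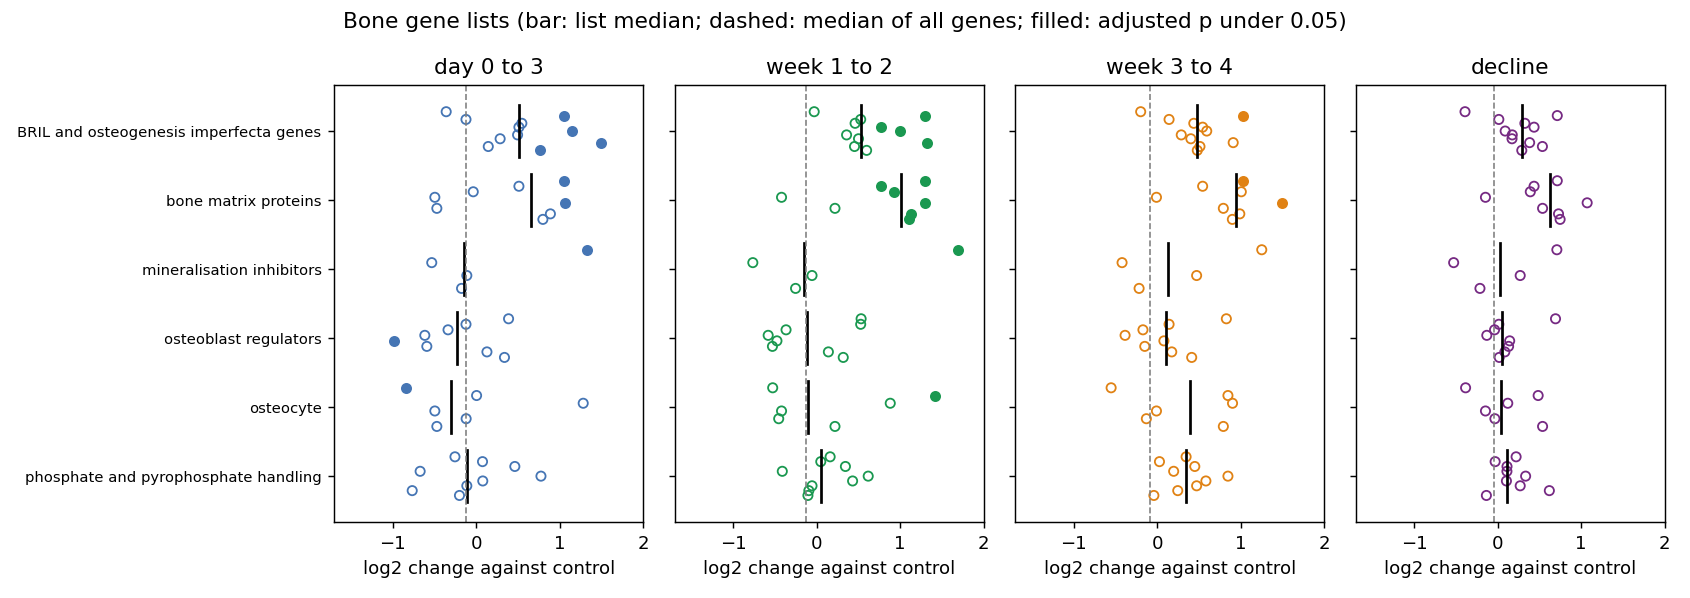
Log2 change against control (horizontal axis) of each measured gene in 6 bone gene lists, in 1 panel per phase; points are genes, filled where adjusted p is under 0.05, bars list medians and dashed lines the median of all genes. Filled points of the bone matrix list number 2, 6, 2 and 0 of 8 through the phases, and the list of phosphate and pyrophosphate handling has none. Enpp1, of the latter list, was not analysed.

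Marker genes of other cells in the joint also differed in these phases. Over all genes, 4.46%, 5.41%, 0.958% and 0% were called higher in order of phase, and 669, 926, 118 and 0 of 19938 lower. Of 8 osteoclast markers, 4, 4, 4 and 0 were higher, and the mean of the 8 was 7.94 to 8.38 at day 0 to 3, 7.91 to 8.14 in joints of week 1 to 2, 7.64 to 8 in those of week 3 to 4 and 7.29 to 7.71 in decline, against 6.40 to 6.91 in controls. Of 6 macrophage markers, 3 were higher at day 0 to 3 and 1 in week 1 to 2, Msr1 in both (7.31-fold and 4.84-fold). Their mean was 8.88 to 9.30 at day 0 to 3, 8.32 to 8.91 in joints of week 1 to 2, 8.09 to 8.82 in those of week 3 to 4 and 7.36 to 8.44 in decline, against 7.38 to 8.16 in controls. Macrophage and osteoclast markers were thus raised in phases in which Ibsp, Sparc and Mgp were.

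Fibroblast genes went both ways. Of 7, 2 were higher in week 1 to 2, Dpt (2.87-fold, adjusted p = 0.015) and Col3a1 (2.10-fold, 0.0167), and 1 was lower, Clec3b, there (-0.70, 0.0143) and at day 0 to 3 (-1.02, 0.0038). The mean of the 7 was 9.37 to 9.45 at day 0 to 3, 9.31 to 9.54 in joints of week 1 to 2, 9.02 to 9.60 in those of week 3 to 4 and 8.86 to 9.21 in decline, against 8.69 to 9.47 in controls, a range that overlapped every phase. Of 4 markers of hypertrophic cartilage, 1, 1, 1 and 0 were higher in order of phase, in each case the collagenase gene Mmp13 (16.5-fold in week 1 to 2). The study lists Mmp13 under synovium. Ihh, Col10a1 and Pth1r, the rest of that list, had changes of -0.30, -0.18 and -0.01 in week 1 to 2 and were called in no phase.

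Other markers were lower. Of 8 skeletal muscle markers, 7, 2, 1 and 0 were lower in order of phase, with a mean of 9.24 to 9.37 at day 0 to 3, 10.35 to 11.14 in joints of week 1 to 2, 10.54 to 10.87 in those of week 3 to 4 and 10.68 to 11.55 in decline, against 11.34 to 12.03 in controls. Of 5 adipocyte markers 3, 2, 0 and 0 were lower, and of 6 of smooth muscle 2, 2, 1 and 0. Of 7 neutrophil, 4 B cell and 4 erythroid markers, at most 1 of a list was called in any phase. The part of these tissues, and of the narrower range of the control arrays, in the changes of Ibsp, Sparc and Mgp was not tested. With a second quantile normalisation, which gives all arrays one range, the week 1 to 2 changes were 0.82 for Ibsp, 0.96 for Sparc and 1.19 for Mgp, smaller than before and still called (adjusted p = 0.0346, 0.0052 and 0.00655).

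With animal 57 added, no member passed in any phase against control. Its own values were 8.69 for Ibsp, 10.32 for Sparc and 8.77 for Mgp, below every other array, whereas Ifitm5 was at 7.10, between those of the other day 0 to 3 joints. For the later phases that array enters the fit only through the spread.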

How the data were processed

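RNA of 15 whole tarsal joints was isolated by the authors with a mirVana kit, amplified and labelled with a NuGEN kit, and hybridised to Affymetrix Mouse Gene 1.0 ST arrays. Background correction, quantile normalisation and RMA summarisation were theirs (affy, R 2.15, per the labels). The log2 values used here are as deposited and lie between 1.56 and 14.26. Arrays have no read depth, so their number limits the precision.

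Of 35556 probe sets, 21789 name 1 gene, 1621 several and 12146 none in the annotation used. Where 1 gene had several (999 genes), the brightest on average was taken, which left 19938 genes. All 5 groups of 14 arrays entered one limma 3.58.1 model (R 4.3.3; lmFit, eBayes), with no covariate. Calls were made at an adjusted p under 0.05 (Benjamini-Hochberg, every gene tested). The methods name an ANOVA, which was run as an alternative. Peak phases, lists and likeness are descriptions. The calculation was tested on simulated data for the 4 comparisons with control. It called 97 to 99 of 100 changes of 4-fold, with 6 to 13 false calls. Of 100 changes of 2-fold it called 47 at day 0 to 3 and 62 to 71 in the other phases, so many changes of that size were missed.

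Named were all members, up to 4 genes of each list with the largest absolute change in week 1 to 2, and the 5 genes most like Sp7 and Ibsp. The members and lists were chosen with earlier results of these data known. Alternatives were all 15 arrays, each array left out, centring on medians, a second quantile normalisation, array weights, trend and robust moderation, fits of 2 groups, a group mean of at least 6, averaged or all probe sets, and the letter code as a block. Leaving out decline 10 and control 2 together, and comparisons of phases that are not neighbours, were added after the data were seen. Plots used matplotlib 3.10.9 and Python 3.11.15.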

Additional observations from a re-analysis of the deposited data

Results flagged for a closer look

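For 5 differences between phases, all arrays of one phase lay below the control mean and all arrays of the other above it. The share of all genes meeting this rule was not computed. At day 0 to 3 alone, 27.8% of all genes had every array below every control. Alpl differed by 1.38 on the log2 scale between decline and day 0 to 3 (SE 0.23, adjusted p = 0.0116 in limma) and by 1.01 between week 3 to 4 and day 0 to 3 (SE 0.23, adjusted p = 0.171). Sp7 differed by 0.65 in week 1 to 2 against day 0 to 3 (SE 0.18, adjusted p = 1) and by 0.26 between week 3 to 4 and day 0 to 3 (SE 0.18, adjusted p = 1). Ank differed by 0.58 between week 3 to 4 and day 0 to 3 (SE 0.32, adjusted p = 0.955). Of these, 1 passed the adjustment over all genes, and each rests on the 2 arrays of day 0 to 3.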

How the results depend on the processing

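The calls of Ibsp, Sparc and Mgp in week 1 to 2 were each kept under 24 of 25 alternatives and lost with all 15 arrays. The count of 3 members at day 0 to 3 was 0 with all 15 arrays and 0 in a fit of the 2 groups, and 0 to 4 with 1 array left out (0 without animal 16 or animal 18, 4 without decline 10, the 4th being Alpl, which fell). In week 1 to 2 the count of 3 was 0 with all 15 arrays, 5 with genes of a group mean of at least 6, and 3 to 5 with 1 array left out (5 without decline 10). In week 3 to 4 the count of 2 was 0 with all 15 arrays, 1 with arrays centred on their medians, 1 with trend and robust moderation, 0 in the fit of 2 groups and 0 under the unmoderated ANOVA contrast, and 0 to 3 with 1 array left out (0 without animal 60, 1 without animal 54, animal 29 or control 2). In decline the count of 0 was 0 to 2 with 1 array left out, 1 without decline 10 and 2 without control 1. In week 1 to 2 against day 0 to 3 the count became 1 with array quality weights. Counts over all genes moved as well. At day 0 to 3, 1559 genes were called, 163 with all 15 arrays, 454 in the fit of 2 groups and 2613 without decline 10. In week 1 to 2 the count was 2005, then 106 with all 15 arrays and 3389 without decline 10. In week 3 to 4 it was 309, then 0 with all 15 arrays, without animal 60 or under the unmoderated contrast. In decline the count of 0 became 191 without decline 10 and 24 without control 1. The causes were not tested, other than that fits of 2 groups have fewer arrays.

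Only changes that had not been called turned direction. Alpl in week 1 to 2 came to 0.00 with arrays centred, and in week 3 to 4 to -0.02 after a second quantile normalisation. Ank in week 1 to 2 came to 0.04 with arrays centred. With 1 array left out, changes against control lay between -0.24 and 0.07 for Ank at day 0 to 3, -0.18 and 0.13 for Ank in week 1 to 2, -0.04 and 0.42 for Phospho1 in week 3 to 4, -0.05 and 0.29 for Phospho1 in decline, and -0.13 and 0.13 for Sp7 in decline. The cause was not tested. No paired analysis was possible because the groups share no replicate numbers that pair animals.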
